A study of Mus musculus with 2 samples.

Results

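The MHC-linked olfactory receptor genes of the mouse lie in 1 cluster on chromosome 17, next to the class I genes of the major histocompatibility complex. Members were the protein-coding genes of the GRCm38.p6 annotation (the assembly of mm10) whose symbol begins with Olfr and that start between 36 and 39 Mb on chromosome 17. There were 46 such genes, of 1110 protein-coding Olfr genes and 21900 protein-coding genes in all. Another 12 Olfr entries of the interval are pseudogenes and were not used. Each gene was read over its span plus 1 kb on each side. The first member, Olfr90, starts at 37085191 and the last, Olfr136, ends at 38336097. The spans ran from 0.918 to 40.1 kb with a median of 0.963 kb, and 38 of the 46 were under 1.2 kb.

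Olfactory receptors are G protein-coupled receptors that bind odorants on the cilia of olfactory sensory neurons. Each neuron settles on 1 receptor gene and 1 of its alleles, and the other receptor genes stay silent, packed in heterochromatin. The coding sequence of a receptor usually sits in a single exon. Some receptor genes are transcribed in testis, and receptors on sperm have been linked to chemotaxis. In mammals most CpGs outside CpG islands are methylated. Kaiso is a zinc finger protein, encoded by the X-linked gene Zbtb33, that binds methylated CpGs and, in addition, an unmethylated consensus site.

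Testis DNA was sheared, methylated fragments were captured with the MBD2 methyl-CpG binding domain, and the captured DNA was sequenced. One library came from wildtype C57BL/6 testis, genotype wildtype. The other came from testis of C57BL/6 background with the genotype label Kaiso KO and the phenotype label generation 3 offspring, male sterile. The description of that second sample also calls the testis wildtype, so every knockout value rests on the genotype label. The age of the mice, the number of animals in a library and the deleted part of the gene are not stated in the labels. With 1 library per genotype there is no replicate check and no test between genotypes, and no interval covers variation between animals. Intervals of ratios cover counting error only. In whole testis a change in the share of cell types and a change of methylation within a cell type cannot be told apart.

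The libraries held 87710791 wildtype and 98549116 knockout reads, and ratios below are knockout over wildtype after scaling by these totals. The deposited table lists only 100 bp windows selected by the authors on an unadjusted p below 0.05, so a gene without a listed window was not shown to be unchanged, and listed ratios are pushed away from 1. Zbtb33 itself had 303 wildtype and 83 knockout counts in 16 listed windows, 15 of them lower in the knockout library (log2 ratio -2.04, 95% interval -2.80 to -1.31). As a reading of the tissue, the gene ends of 20 genes that are unmethylated in germ cells and methylated in somatic cells, such as Dazl and Sycp3, were examined. Of the 19 with enough reads, 16 were higher in the knockout library and 0 lower, where 22.4% of all protein-coding genes were called higher and 13.4% lower at their ends. Their level per listed window ranged over genes from 3.75 to 31.5 counts in wildtype and from 36.9 to 74.4 in the knockout. Of 12 Sertoli and Leydig cell genes with enough reads, 5 were higher and 0 lower, with 1.31 to 46.3 wildtype and 20.8 to 69.8 knockout counts per listed window. The part of these differences in the receptor gene results was not tested. Captured DNA gives no RNA levels of marker genes.

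The receptor promoters are poor in CpG, the dinucleotide that the capture reads. Promoter sequences, from 250 bases before to 50 after the annotated start, were taken from RefSeq (GRCm38.p6) and matched 35 of the 46 members. They held between 0 and 3 CpGs with a median of 1, and 13 of the 35 (37.1%) held none. The other Olfr genes were alike, with a median of 1 and 33.2% without a CpG, whereas the median over 21263 promoters of protein-coding genes was 13 and 4.63% held none. The promoters of Olfr94 and Olfr130 are shown because they are the 2 in the cluster that a listed window overlaps. That of Olfr95 is shown because the listed windows of this gene held no wildtype read, and it was picked after its values were seen. The sequences run 5′ to 3′ on the strand of the gene with each CpG in capitals. Olfr94 is from chr17:37197917-37198216 on the minus strand, Olfr95 from chr17:37211802-37212101 on the minus strand, and Olfr130 from chr17:38066923-38067222 on the plus strand.
Olfr94: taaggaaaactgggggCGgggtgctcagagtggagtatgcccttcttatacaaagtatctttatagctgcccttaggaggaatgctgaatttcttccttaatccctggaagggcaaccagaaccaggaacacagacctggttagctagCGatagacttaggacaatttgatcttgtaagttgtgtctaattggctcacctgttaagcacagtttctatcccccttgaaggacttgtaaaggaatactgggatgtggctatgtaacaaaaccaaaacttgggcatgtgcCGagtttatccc
Olfr95: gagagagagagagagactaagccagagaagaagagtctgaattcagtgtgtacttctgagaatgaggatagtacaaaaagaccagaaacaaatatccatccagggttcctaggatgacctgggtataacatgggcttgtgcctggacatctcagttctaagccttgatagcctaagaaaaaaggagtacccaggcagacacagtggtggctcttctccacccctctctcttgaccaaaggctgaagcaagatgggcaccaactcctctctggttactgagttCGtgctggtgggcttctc
Olfr130: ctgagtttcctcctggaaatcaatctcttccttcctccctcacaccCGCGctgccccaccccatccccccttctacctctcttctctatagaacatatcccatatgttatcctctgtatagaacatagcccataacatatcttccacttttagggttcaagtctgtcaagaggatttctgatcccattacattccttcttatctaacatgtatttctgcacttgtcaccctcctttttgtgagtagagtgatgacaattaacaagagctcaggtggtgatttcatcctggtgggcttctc

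Of the 3 CpGs in the Olfr94 promoter, the one at position -102 from the annotated start lay in a listed window with 2 wildtype and 11 knockout counts, and the one at position 38 in a window with 3 and 12. The CpG at -234 lay in no listed window. The single CpG of the Olfr95 promoter, at position 32, was not in a listed window either. In Olfr130 both CpGs form a CGCG, at -204 and -202, and lay outside the listed windows, the first of which, with 6 wildtype and 61 knockout counts, overlaps only the last bases of the promoter. CGCG, a methylated form of which Kaiso binds, was found in 1 of the 35 member promoters (2.86%), against 0.767% of the other Olfr promoters and 49.2% of all protein-coding ones. The unmethylated Kaiso consensus TCCTGCNA, searched on both strands, was found in 2 of 35 (5.71%), in Olfr92 and Olfr118, against 2.52% and 4.74%. The site of Olf1/Ebf factors, written CCCNNGGG, was found in 5 (14.3%), against 2.63% of other Olfr and 15.6% of all promoters, and the homeodomain site TAATTA in 4 (11.4%), against 18.8% and 4.53%. Such matches describe the letters of these windows and are no evidence of binding.

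Only 16 of the 46 members (34.8%) had a listed window, and 30 had none. The share was 41.6% for the 1064 other Olfr genes, 63.5% for the 126 class I receptor genes of chromosome 7, 31.7% for the 287 genes of chromosome 2 and 90.8% for all protein-coding genes. Listed windows numbered 107 over 210 kb of member regions, or 5.09 per 10 kb. The rest of the cluster held 5.197 per 10 kb, the regions of other Olfr genes 5.71 and those of all protein-coding genes 12.0. Calls required 20 fragments or more in the sum of the libraries (80 window counts, since a fragment falls in several windows), a 2-fold difference in either direction, and an exact 95% interval that excludes 1. Of the 46 members 15 reached the minimum, among which 7 were higher, 2 lower and 6 neither. Over all 19238 protein-coding genes with the minimum 9.63% were called higher and 5.69% lower. Those genes held a median of 31 listed windows where they had any and the members 4, and a sum over few windows strays farther from the median. Members could reach the minimum through the library in which they were high, so the count describes these genes only. The split depended on the scaling. Scaling to the autosomal counts of the table gave 5 higher and 2 lower members, against 1338 higher and 1466 lower over all protein-coding genes. Setting CpG-rich windows (5 or more CpGs) to a median ratio of 1 gave 4 and 2, against 901 and 2316, and scaling within classes of equal CpG count gave 9 and 0, against 3675 and 272.

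**Figure D1:**
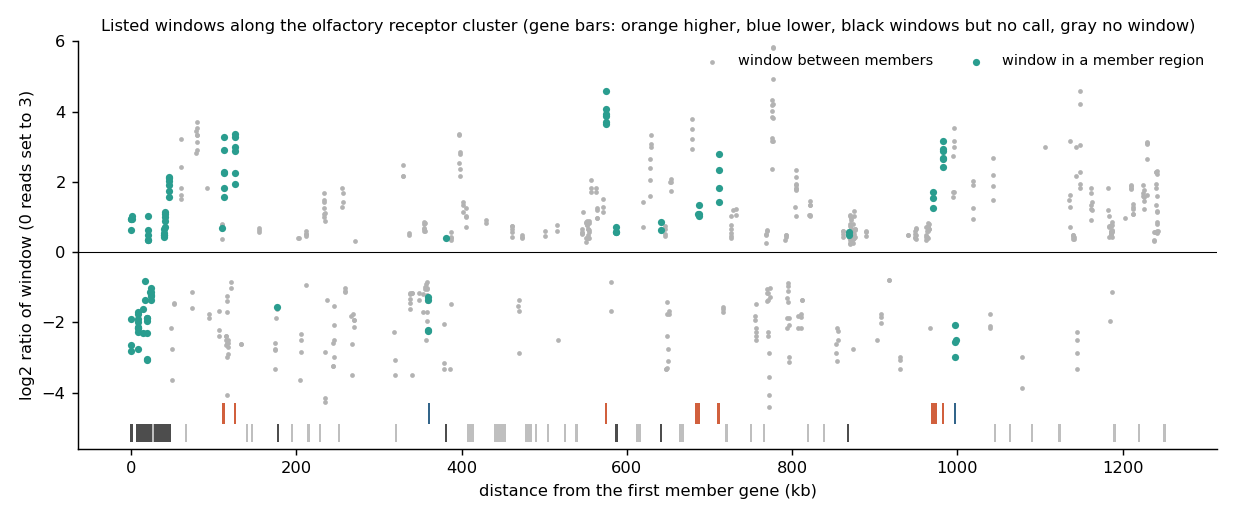
Listed windows along the cluster, with the distance from the start of Olfr90 in kb on the x axis and the log2 ratio of knockout over wildtype on the y axis; points in member regions are green and those between members gray, and bars at the bottom mark the genes. The 107 green windows gather at 16 genes, and some called genes are direct neighbours, such as Olfr94 and Olfr95, Olfr122 and Olfr123, and Olfr129, Olfr130 and Olfr131.

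The 3 members with the largest ratios had few wildtype reads, or none, in their listed windows. Olfr117 (17: 37659378 to 37660331) had 6 listed windows with 1 to 5 wildtype and 27 to 71 knockout counts, 18 against 299 in all. Its log2 ratio was 3.89 (95% interval 2.64 to 5.97), a 14.8-fold difference. Every window overlapped the gene, and no wildtype count reached the lowest knockout count, in the same counts that gave the call. Among the member windows with at least 40 counts the 3 largest ratios were all in Olfr117, the highest with 3 wildtype and 57 knockout counts and 3 CpGs (log2 4.08). Windows between members reached higher ratios, up to 1 wildtype and 64 knockout counts (log2 5.83), 776 kb from the start of Olfr90.

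Olfr95 (17: 37210913 to 37211851) had 6 adjacent windows with 0 wildtype counts throughout and 13, 25, 33, 35, 27 and 16 knockout counts, 149 in all. Against a floor of 3 fragments, or 12 window counts, it was 11.1-fold higher (log2 3.47). That value is set by the floor and is no lower bound, since the counting interval starts lower, at a log2 of 3.09. The log2 ratio rests on the 4 window counts taken as 1 fragment, and was 2.88 with a divisor of 6 and 5.47 with a divisor of 1. These windows covered the downstream part of the gene, with centres 500 to 1000 bases from its annotated start, and left the promoter above uncovered. Olfr130 (17: 38067173 to 38068126) had 6 windows with 4 to 14 wildtype and 33 to 85 knockout counts, 52 against 391. Its log2 ratio was 2.74 (1.91 to 3.71), and the windows ran from the end of the printed promoter over most of the gene. The knockout level of Olfr130, 65.2 counts per window, was above the median of 40 over all listed windows, while its wildtype level, 8.67, was below the wildtype median of 39.

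Olfr123 (17: 37795446 to 37796375) had 4 windows with 4 to 7 wildtype and 21 to 34 knockout counts, and a log2 ratio of 2.08 (0.75 to 3.62). Olfr94 (17: 37196806 to 37197966) had 39 wildtype and 128 knockout counts in 7 windows, and a log2 ratio of 1.55 (0.45 to 2.70). Of these, 28 and 51 counts came from 1 window at the far edge of the downstream flank. That window lies within the neighbouring gene Ubd and was counted for both genes. The other 6 windows, over the start of the gene and the printed promoter, had 0 to 3 wildtype and 10 to 17 knockout counts, and a log2 ratio of 2.64 (0.73 to 4.89). Olfr129 (1.48, 0.11 to 3.11) and Olfr122 (1.14, 0.21 to 2.23) were the weakest of the higher members. Olfr129 had 6 to 10 wildtype and 22 to 27 knockout counts in 3 windows, and Olfr122 had 11 to 15 and 26 to 37 in 4. In all 36 windows of the 7 higher members the knockout count was the larger one, although adjacent windows share reads and are not independent. The calls were made from these same counts, so their common direction adds no support. Olfr122 and Olfr129 were no longer called with autosomal scaling, and with CpG-rich windows at a median ratio of 1 Olfr94 was lost as well.

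**Figure D2:**
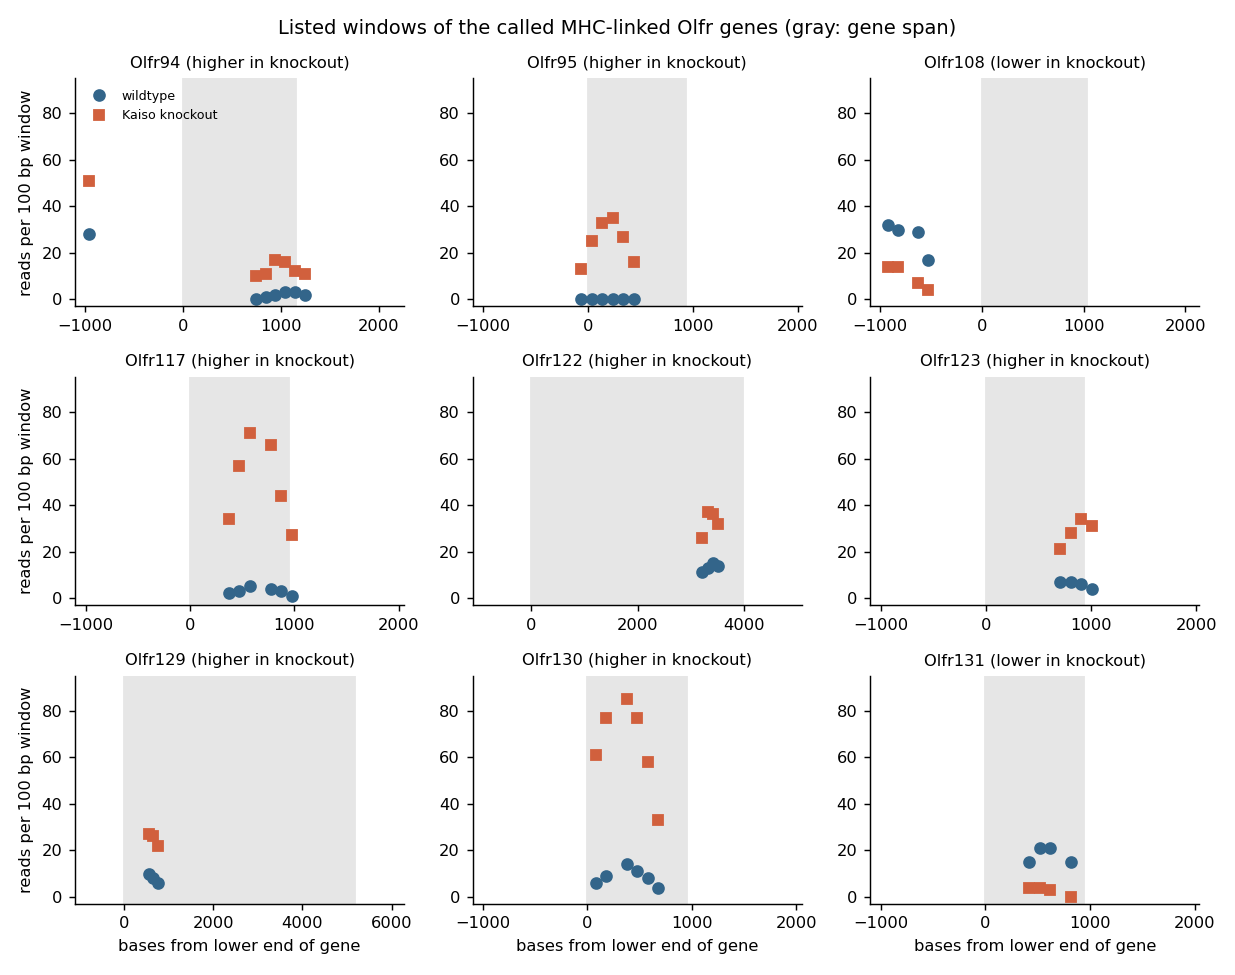
Reads per listed 100 bp window of the 9 called members, by distance in bases from the lower end of the gene, with wildtype as blue circles, knockout as orange squares and the gene span in gray. Knockout counts lie above wildtype counts in each window of the 7 higher members and below them in each window of Olfr108 and Olfr131. The calls were made from these counts.

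The 2 lower members were Olfr131 and Olfr108. Olfr131 (17: 38082032 to 38082976), of the same family as Olfr130, had 15, 21, 21 and 15 wildtype and 4, 4, 3 and 0 knockout counts in 4 windows of its span. Its log2 ratio was -2.88 (-5.16 to -0.98), and with 2 kb in place of 1 kb on each side it was -0.012. Olfr108 (17: 37445480 to 37446517) had 4 windows, all upstream of the gene, with 17 to 32 wildtype and 4 to 14 knockout counts, and a log2 ratio of -1.64 (-2.81 to -0.51). In both genes the groups of window counts did not overlap. The windows were selected on p and the calls rest on these same counts, so this adds no support to them. Their windows averaged 1.25 and 1.5 CpGs, less than the 1.75 to 3.14 of the higher members. Scaled within CpG classes their log2 ratios were -1.78 and -0.84, and neither gene was called.

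The other 6 members with the minimum differed by less than the fold set for a call. Log2 ratios were 0.74 (-0.30 to 1.91) for Olfr120, 0.62 (-0.22 to 1.41) for Olfr118, 0.53 (-0.13 to 1.22) for Olfr761, 0.51 (0.090 to 0.95) for Olfr90, 0.40 (-0.63 to 1.37) for Olfr109 and 0.12 (-0.073 to 0.31) for Olfr91. Their wildtype levels, between 24.5 and 64.0 counts per listed window, lay above the 0 to 13.3 of the higher members. A call as higher favours low wildtype counts, so this contrast adds no support to the calls. Scaled within CpG classes Olfr120 (1.72) and Olfr118 (1.03) were called higher. Olfr761, Olfr109, Olfr90 and Olfr91 led with 64.0, 62.0, 38.0 and 36.2. The single window of Olfr98, with 34 wildtype and 13 knockout counts, was under the minimum.

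Within Olfr90 and Olfr91 the direction changed along the gene. Over the span of Olfr90 the 5 windows held 221 wildtype and 470 knockout counts (log2 0.92, 0.46 to 1.42), while the 3 windows of its downstream flank held 83 and 18 (-2.37, -4.56 to -0.99). The annotated span of Olfr91 is 40.1 kb long and contains Olfr92, at which no window was listed. Its 46 windows form 7 blocks more than 1 kb apart. The first, 9 windows from 37093101 to 37094100 that also overlap the noncoding RNA gene Gm41579, had 246 wildtype and 68 knockout counts (-2.02, -2.90 to -1.24). The last, 6 windows from 37130801 to 37131400 over the pseudogene Gm19807, had 84 and 362 (1.94, 1.23 to 2.69). Of the 46 windows 21 were higher and 25 lower, so the near-zero ratio of the whole gene sums blocks of opposite direction.

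**Figure D3:**
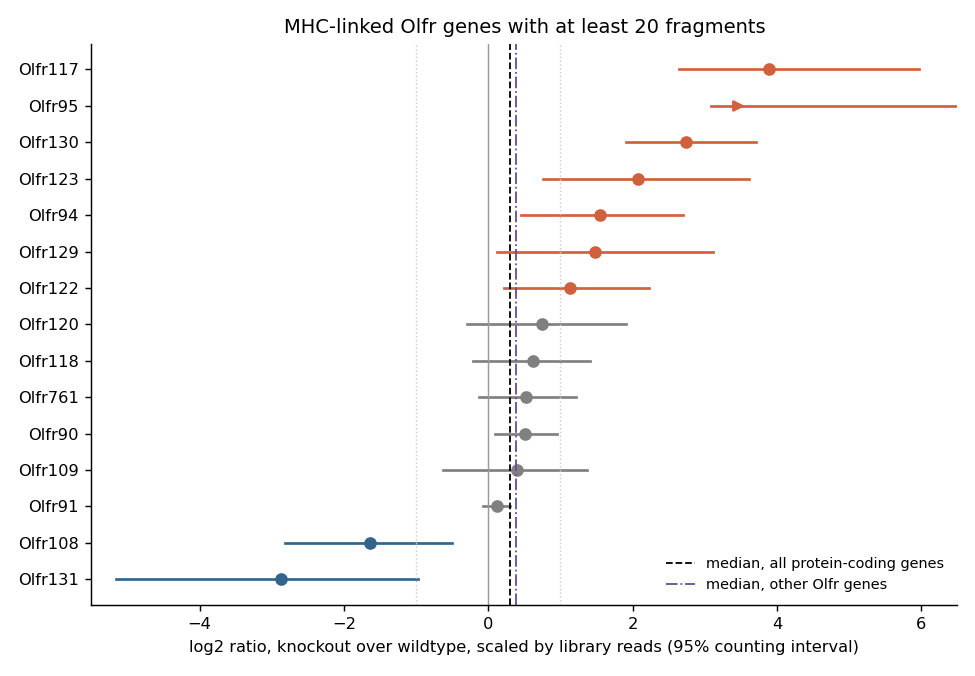
Log2 ratio of knockout over wildtype for the 15 members with at least 20 fragments, with the exact 95% counting interval as a line. The triangle of Olfr95 marks a value set by the floor and is no lower bound, and its interval has no upper end. Of the 15 members, 7 lie at or above 1.14 and 2 at or below -1.64, and the dashed lines give the medians of all protein-coding genes (0.31) and other Olfr genes (0.39).

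The median log2 ratio of the 15 members was 0.74 (0.40 to 2.08, order-statistic interval over genes), against 0.31 over all protein-coding genes and 0.39 over 327 other Olfr genes with the minimum. Of these other Olfr genes 25.7% were called higher and 30.3% lower. Class I receptor genes of chromosome 7 had 17 higher and 14 lower of 66 (median 0.49), and genes of chromosome 2 had 14 higher and 23 lower of 53 (median -0.82). The difference of 0.35 between members and other Olfr genes was not tested, since genes of 1 library pair are not replicates. Outside the interval, the annotation lists 5 more Olfr genes on chromosome 17, all at lower coordinates. Olfr100, among them, is listed at 80755 to 81681, far from the others, and had no listed window. The nearest to the interval is Olfr63, which starts at 33268726 and had 231 wildtype and 357 knockout counts (log2 0.46). Of the 5, 3 had the minimum, with 0 higher and 1 lower, namely Olfr55 with 117 wildtype and 61 knockout counts (-1.11).

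The 7 higher members belonged to the receptor families MOR256 (Olfr94, Olfr117, Olfr123, Olfr130) and MOR263 (Olfr95, Olfr122, Olfr129), named after sequence similarity in the annotation's synonyms. These families held 24 of the 46 members and 12 of the 15 with the minimum, of which 7 were higher and 1, Olfr131, lower. The 10 members of MOR218 had 1 gene with a listed window, Olfr761. MOR250, MOR156, MOR121 and MOR249, with 4, 5, 1 and 1 members, added Olfr109, Olfr98 and Olfr108, and 1 member has no family name. This grouping was chosen after the values were seen. Elsewhere in the genome 7 of 23 genes of both families with the minimum were higher and 5 lower (median 0.59), against 77 and 94 of 304 for the remaining families (median 0.37). Receptors of a family are close in sequence, so reads may be shared between copies, and the authors' treatment of multiple alignments is not stated in the labels.

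Window direction followed CpG content in the cluster. Of the 107 windows 70 (65.4%, Clopper-Pearson interval 55.6 to 74.4%) were higher in the knockout library, against 56.5% over the table. The share was 66.4% for the 542 windows between members and 59.4% for those of other Olfr genes, so it was not particular to the members. Windows with 1 CpG were higher in 52.2% of 46 cases (36.9 to 67.1%), those with 2 in 62.1% of 29, those with 3 in 78.9% of 19, and all 13 with 4 or more. The shares in the table were 37.8%, 49.2%, 71.0%, 91.7% and, for 5 or more, 98.9%. In each class the table value lay inside the member interval. These intervals take windows as independent, although adjacent windows share reads and 46 of the 107 lie in Olfr91, so they describe the windows only. The size differed more than the direction. Windows at least 4-fold higher made up 24.3% of member windows, 13.1% of those between members, 19.9% of those of other Olfr genes and 9.44% of the table. Higher windows had medians of 14 wildtype and 52 knockout counts in members, against 54 and 95 in the table.

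Listed windows fell in gene spans more than in flanks. Leaving out Olfr91, the spans held 47 windows in 80.9 kb (5.81 per 10 kb) and the flanks 14 in 90 kb (1.56 per 10 kb). In spans 43 of 47 windows were higher in the knockout library, with medians of 8 wildtype and 34 knockout counts. With Olfr91, which was left out after its values were seen, 64 of 93 span windows (68.8%) were higher, with medians of 21 and 33. In flanks 6 of 14 were higher, with medians of 28.5 and 13. The 8 lower flank windows lay at Olfr90, Olfr98 and Olfr108, and 5 of them held 1 CpG. Summed over the union of the member regions the log2 ratio was 0.53, and it was 1.01 without Olfr91, whose windows made up 46 of the 107.

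**Figure D4:**
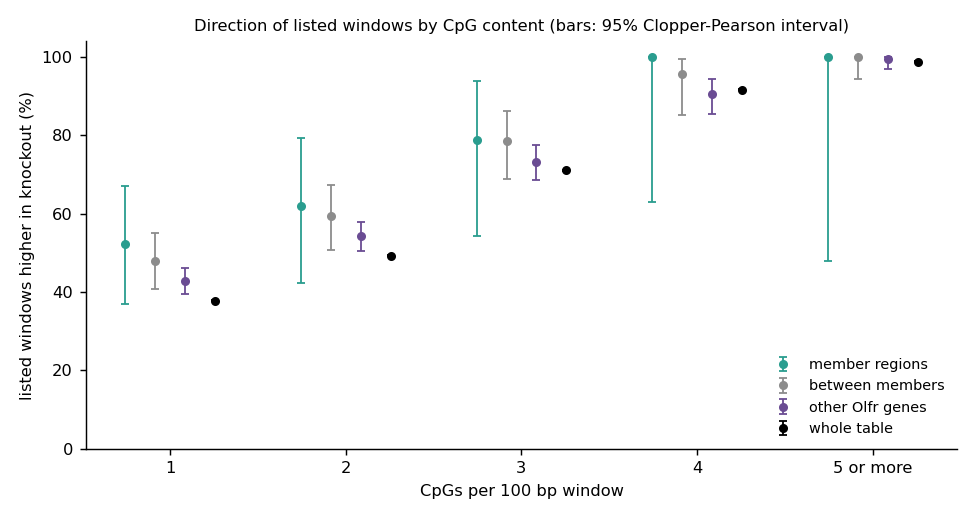
Percentage of windows in which the knockout count was the higher one, by CpG count, with 95% Clopper-Pearson intervals, for member regions, the rest of the cluster, other Olfr genes and the whole table. The intervals take adjacent windows as independent. The percentage climbs from the lowest to the highest CpG class, from 52.2% to 100% in member regions and from 37.8% to 98.9% in the table.

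The called genes between and beside the receptors were all higher in the knockout library. Of 41 other protein-coding genes of the interval 29 had the minimum, of which 8 were higher and 0 lower (median 0.66). The same rule called 9.63% of all protein-coding genes higher and 5.69% lower. These neighbours held a median of 10 listed windows where they had any, against 31 over all genes, and sums over few windows stray farther. Some of their regions overlap, such as those of Gm6034 and Gm11127, so a window can count for both genes. Genes with windows but below the minimum went mostly the other way. H2-M1, with 63 wildtype and 16 knockout counts, had a log2 ratio of -2.15 (-4.21 to -0.54). H2-T23, H2-M9, Gm10499 and Rpp21 were lower (-2.63 to -1.26), and Esp31 was higher (2.11). Among the 8 higher genes Rnf39, a RING finger gene, had 11 wildtype and 185 knockout counts (log2 3.90, 2.13 to 6.10). H2-M2, a nonclassical class I gene within the receptor cluster, had 35 and 257 (2.71, 1.65 to 3.85), H2-M10.3 had 45 and 285 (2.49, 1.60 to 3.59), and Gm7030 had 94 and 484 (2.196, 1.53 to 2.86). The H2-M10 genes encode class I molecules of vomeronasal neurons. Among the H2 genes 4 of 10 were higher and among the 6 Trim genes 0. Genes of olfactory signalling, which lie outside the cluster, had 6 of 25 higher and 0 lower. Their median of 0.27 was near the 0.31 of all protein-coding genes, whereas the share called higher, 24%, was above the 9.63% over all genes. The difference of these shares was not tested. The called ones with the highest interval bounds were Rtp2 (1.63, 1.30 to 1.97) and Rtp1 (1.84, 1.21 to 2.498), which carry receptors to the cell surface, Ckb, a creatine kinase gene (1.36, 1.02 to 1.71), and Emx2, a homeobox gene of the olfactory epithelium (1.21, 0.89 to 1.54).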

How the data were processed

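Methylated DNA of 1 wildtype and 1 Kaiso knockout testis library was analysed from 1 deposited table of 100 bp windows. Bowtie2 2.2.6, edgeR and mm10 are named in the submitters' processing notes, and the column names are those of MEDIPS per the file headers. The counts deposited by the authors are raw reads per window, and their RPKM divides it by window length and by the reads of the library, from which library sizes were read. The relative methylation score of the authors has no stated scale and was not used in a result. Their deposited log2 fold change, coded as wildtype over knockout, served only for an alternative scaling, 0.13 above the RPKM ratio for the knockout. The p-values of the authors were all below 0.05 in the 2537435 listed windows, and the deposited adjusted value equals the unadjusted one. Another 10 columns of per-sample or per-group values were not used.

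Window counts were summed over each gene with 1 kb on each side, converted to fragments at 4 window counts each (a choice made for this work), and scaled by library reads (Python 3.11.15, scipy 1.17.1, R 4.3.3 with edgeR 4.0.16 for TMM). For each ratio a 95% interval was taken from the exact Clopper-Pearson limits of the knockout share of fragments. These limits cover counting error only, since PCR copies are not independent molecules. A region without a read was set to 3 fragments and a window without a read to 3 counts. The script was tested on simulated data. Named genes were up to 8 higher and 8 lower members by interval bound and the 4 with the most wildtype counts per window, up to 4 higher and 4 lower neighbours, and up to 4 genes of the signalling list, by interval bound. The members and lists were chosen with earlier results of these data known. Gene positions, strands and promoters came from RefSeq, GRCm38.p6.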

Additional observations from a re-analysis of the deposited data

How the results depend on the processing

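Of the recomputed summary values, 93 stayed in the range set for an unchanged value, 26 moved and 1 turned. That range was wide. A member median of 1.72 with scaling within CpG classes counted as unchanged against 0.74, as did 5 or 9 higher members against 7. So did every difference of medians between members and other Olfr genes. It ran from 0.28 (divisor of 6) to 1.49 (deposited p of at most 0.001). Its interval ran over member genes alone, with the median of other Olfr genes held fixed, so it is no test of the difference. That interval was 0.013 to 1.69 in the main setting and -0.068 to 1.99 within CpG classes. With CpG-rich windows (5 or more CpGs) at a median ratio of 1 the pooled ratio turned to -0.14, the median was 0.0749, the share of higher windows 50.5%, 4 members were higher, and Olfr90 turned to -0.15. Ratios and medians here are on the log2 scale. With the autosomal counts of the table as scaling the pooled ratio was 0.26. Scaling within CpG classes gave a pooled ratio of 1.08 and 0 lower members. Those 2 settings and TMM, the authors' offset and the CpG-rich windows moved the median over all protein-coding genes by -0.27, 0.36, 0.041, 0.13 and -0.67, so member ratios are to be read against it. Members called higher numbered 4 with the annotated start alone, a minimum of 40 fragments, a 3-fold limit, a deposited p of at most 0.001 and windows of 2 or more CpGs. Members called lower numbered 1 without flanks, with 500 bp on each side and with a divisor of 6, and 0 with 40 fragments, a p of at most 0.001 and 2 or more CpGs. They numbered 3 with 2 kb on each side, at gene ends and with a divisor of 1. At gene ends Olfr91 was called lower (-1.96, -2.90 to -1.11). The pooled ratio was 0.78 at gene ends, 1.04 at the annotated start, 1.08 with a p of at most 0.001 and 0.69 with 2 or more CpGs. The median was 2.51 with a p of at most 0.001, the highest of any alternative. The share of higher windows was 80.5% at the annotated start and 75.4% with 2 or more CpGs. Without Olfr91, an alternative chosen after seeing the data, the pooled ratio was 1.01 and the share 80.3%. Stricter settings left fewer windows or members, and for the other moves the cause was not tested. Of 19 alternatives, Olfr130 kept its call in 19, Olfr117, Olfr123 and Olfr95 in 18, Olfr94, Olfr108 and Olfr131 in 13, Olfr122 in 12 and Olfr129 in 11, and none of these 9 was called in the opposite direction. The 30 members without a listed window have no value with 1 kb on each side. No paired analysis was possible because each genotype has 1 library.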
